A study of Mus musculus with 9 samples.

Results

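Ribosome biogenesis and nucleolar genes were examined in the embryonic mouse lens with and without ATF4, as a set of 40 genes named by their mouse symbols. The members were picked by the known roles of their proteins, by a rule that uses no measured value, with earlier results of these data known. All 40 were found among the 55416 genes counted, and all 40 were among the 14903 genes with enough counts to be tested. The comparison asked whether mRNA levels of the machinery that makes ribosomes differed when the transcription factor ATF4 was missing.

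Whole lenses were collected at the embryonic stage E16.5 from 4 *Atf4* null embryos and 5 wildtype embryos. *Atf4* null embryos were homozygous for the germline *Atf4tm1Tow* allele, in which a neomycin cassette replaces coding exons, so every tissue of the embryo carried the mutation and not the lens alone. Wildtype embryos were littermates from the same crosses of heterozygous mice on a mixed C57Bl/6/129 background, and neither genotype was typed for the *Bfsp2* deletion that 129 mice carry. The 2 lenses of an embryo gave 1 library of total RNA (SMARTer Stranded Pico kit), and the values are counts of reads per gene.

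Ribosomes are assembled in the nucleolus. RNA polymerase I transcribes a long precursor that holds most of the ribosomal RNA, *Myc* is a known activator of this transcription and of many assembly genes, and small nucleolar RNPs (snoRNPs) of the box C/D and box H/ACA classes guide methylation and pseudouridylation of the precursor. The small subunit processome then folds and cleaves the precursor to form the 40S subunit, while a separate series of GTPases, helicases and scaffold proteins builds the 60S subunit. ATF4 is best known as an activator of amino acid synthesis and transport genes when amino acids are scarce or the endoplasmic reticulum is stressed. Reads that aligned to the ribosomal RNA precursor were removed before counting, so the ribosomal RNA itself was not measured, only the mRNAs of the genes that make and process it.

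Between 7440807 and 8696699 reads per *Atf4* null library and between 8409779 and 8906996 per wildtype library were counted on genes. Levels are given as CPM (counts scaled to the size of the library with TMM factors) and, to compare genes with each other, as FPKM, which also divides by the length of the exons in kilobases. That length joins the annotated exons of all transcripts of a gene and can exceed that of a single mRNA, so comparisons between genes are approximate. *Atf4* itself lay between 0.582 and 10.6 CPM in the null and between 119 and 155 CPM in the wildtype libraries, so every library lay on the side its label names. Wildtype replicate 5 stood apart, with a summed level of 9600 CPM for 12 skeletal muscle markers and 14400 CPM for 9 mesenchyme markers, where the other wildtype libraries reached at most 39.6 and 271 CPM, so the calls on the members are given with and without it. In the 4 null libraries the muscle markers summed to 124, 40.4, 54.3 and 47.5 CPM, all above wildtype replicates 1 to 4, and the mesenchyme markers to 435, 565, 340 and 214 CPM, of which 3 were above them. The mesenchyme markers did not move alike: *Pdgfra* was called lower in the null (6.7 to 26.2 CPM against 180 to 258 CPM, log2 fold change -3.36, adjusted p 3.65e-05 in edgeR's quasi-likelihood test), while *Col1a1* was at 93.6 to 146 CPM in the null, 8.99 to 29.1 CPM in wildtype replicates 1 to 4 and 6600 CPM in wildtype replicate 5. At 180 to 227 CPM, *Pdgfra* made up most of the mesenchyme sum of wildtype replicates 1 to 4, so the sums hide the other markers. *Col1a2* was at 42.4 to 122 CPM in the null against 9.24 to 18.8 CPM in those replicates, while *Col3a1*, *Prrx1* and *Twist1* overlapped with them. Lens fiber markers were present in every library, between 46900 and 112000 CPM in sum for 12 genes, although *Lim2* was at 0 counts in all libraries. *Lgsn* was at 0 in the null libraries and in wildtype replicate 2, and at 2.57 to 8.1 CPM in the other wildtype libraries. In whole lens RNA, fewer cells of a type and less RNA per cell cannot be told apart.

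Of the 40 genes, 7 rose in the *Atf4* null lens and none fell (threshold 0.05 on the adjusted p) by the quasi-likelihood test of edgeR, adjusted after Benjamini and Hochberg over all genes tested. Over all genes tested, 5.9% were called, 2.23% higher and 3.67% lower. The 7 were *Utp20*, *Nop14* and *Wdr43* of the small subunit processome, *Nop2* and *Pes1* of the large subunit, the box C/D protein *Nop58* and the nucleolar transcription regulator *Mybbp1a*. Their fold changes ran from 1.49 for *Wdr43* to 1.89 for *Utp20*, and in this fit no member reached a 2-fold change in either direction. Among the alternative analyses, log2 fold changes reached 1.04 for *Utp20* and 1.40 for *Myc*, which was called in none of them. The fold change was above 1 for 35 of the 40 genes, against 50.1% of all genes tested, and the median log2 fold change was 0.22 over the members against 0.00 over all genes tested. With library size alone in place of TMM factors, the median of all genes moved to 0.12 and that of the members to 0.35, which is 0.22 above it. Unadjusted p-values were below 0.05 for 14 members, against 19.6% of all genes tested. For 8 members every null library lay above every wildtype library, against 4.65% of all genes tested, and for none did every null library lie below, against 5.58%. Without wildtype replicate 5, 9 members were called, 8 of them higher and *Ncl* lower, against 8.33% of the genes tested then, of which 3.37% were higher and 4.96% lower. Leaving out another library gave fewer calls or as many, with 2 members called without null replicate 3, 3 without wildtype replicate 2, 4 without null replicate 4, 7 without null replicate 1 and 5 without each of the others. Calls over all genes fell as well, from 880 of 14903 to 562 of 15425 without null replicate 3 and 570 of 14613 without wildtype replicate 2. They were 845 of 15572 without null replicate 4, 847 of 15321 without null replicate 1 and 527 to 597 without each of the others.

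**Figure D1:**
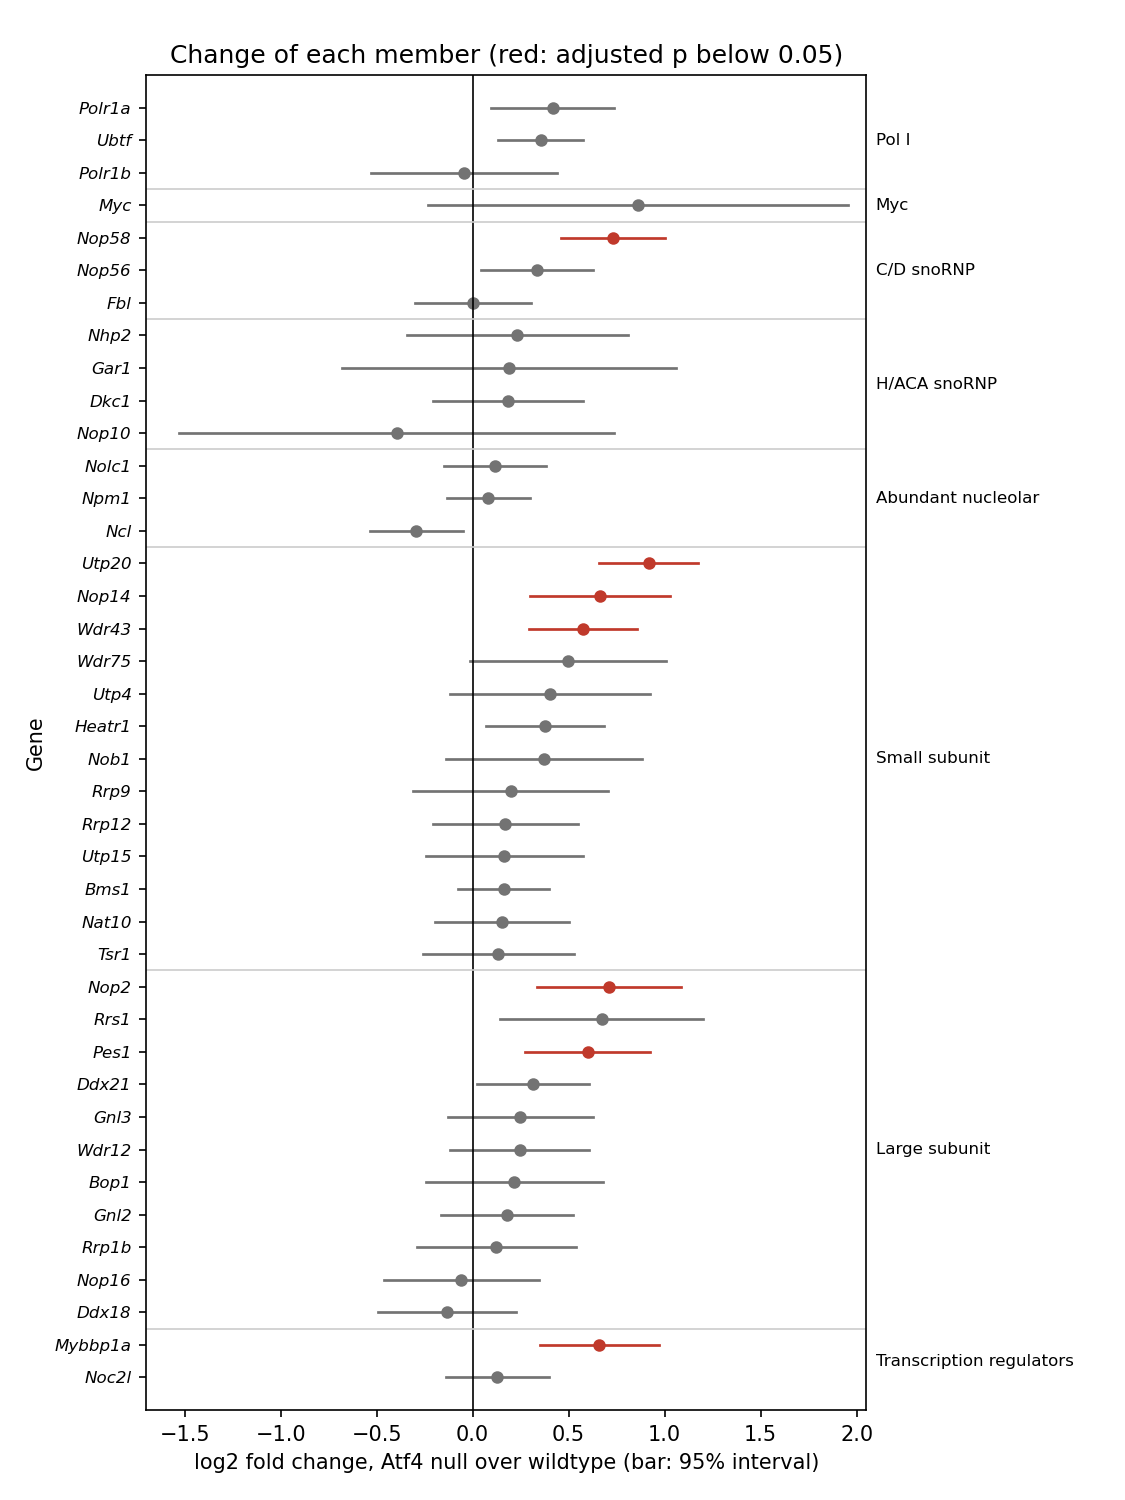
Log2 fold change of each of the 40 genes, *Atf4* null over wildtype (x axis), with its 95% interval as a bar, grouped by role. The 7 genes in red passed an adjusted p of 0.05, all to the right of 0, and 5 genes have points to the left of 0.

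The 7 genes that rose lie on 6 chromosomes. In GRCm39 coordinates (GENCODE vM39), *Utp20* (ENSMUSG00000004356) spans chr10:88582469-88662699, *Nop58* (ENSMUSG00000026020) spans chr1:59724106-59758203, *Mybbp1a* (ENSMUSG00000040463) spans chr11:72332069-72342596 and *Pes1* (ENSMUSG00000020430) spans chr11:3913938-3931441. *Wdr43* (ENSMUSG00000041057) lies at chr17:71922890-71966027, *Nop2* (ENSMUSG00000038279) at chr6:125108816-125121717 and *Nop14* (ENSMUSG00000036693) at chr5:34795876-34817506. Their promoters, from 250 bases before to 50 bases after the start of the gene, are printed because these genes were called higher. The promoters come from RefSeq on an earlier build, GRCm38.p6, whose coordinates differ from those above. Each is read 5′ to 3′ on the strand of the gene. Capitals mark CACGTG, the E-box known to bind *Myc* with *Max*, or, in *Nop14*, a match on the other strand to TGATGNAA, the core of the known ATF4 element.
Utp20 promoter (chr10:88826765-88827064, - strand): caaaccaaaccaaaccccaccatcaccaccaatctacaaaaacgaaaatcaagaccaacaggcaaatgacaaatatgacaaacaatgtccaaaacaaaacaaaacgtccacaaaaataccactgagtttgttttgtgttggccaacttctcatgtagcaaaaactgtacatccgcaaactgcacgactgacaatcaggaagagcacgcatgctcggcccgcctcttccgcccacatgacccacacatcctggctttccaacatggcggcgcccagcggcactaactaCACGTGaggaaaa
Nop58 promoter (chr1:59684756-59685055, + strand): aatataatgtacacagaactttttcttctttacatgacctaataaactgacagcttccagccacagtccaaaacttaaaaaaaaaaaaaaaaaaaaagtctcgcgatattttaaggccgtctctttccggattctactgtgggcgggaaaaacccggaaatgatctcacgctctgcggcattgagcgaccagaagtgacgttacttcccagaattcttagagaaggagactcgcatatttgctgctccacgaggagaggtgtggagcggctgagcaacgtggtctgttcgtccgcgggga
Mybbp1a promoter (chr11:72441077-72441376, + strand): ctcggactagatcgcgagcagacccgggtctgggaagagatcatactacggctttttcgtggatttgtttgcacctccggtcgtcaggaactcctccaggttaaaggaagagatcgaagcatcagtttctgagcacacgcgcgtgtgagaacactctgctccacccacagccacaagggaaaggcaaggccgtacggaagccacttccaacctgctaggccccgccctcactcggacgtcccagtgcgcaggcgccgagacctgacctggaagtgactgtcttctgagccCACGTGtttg
Wdr43 promoter (chr17:71615965-71616264, + strand): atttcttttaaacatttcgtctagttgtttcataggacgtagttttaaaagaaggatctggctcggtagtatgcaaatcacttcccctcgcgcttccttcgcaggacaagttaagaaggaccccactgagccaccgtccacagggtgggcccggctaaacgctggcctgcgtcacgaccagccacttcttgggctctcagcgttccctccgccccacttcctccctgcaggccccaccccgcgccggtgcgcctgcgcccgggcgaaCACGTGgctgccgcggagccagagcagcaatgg
Nop2 promoter (chr6:125131633-125131932, + strand): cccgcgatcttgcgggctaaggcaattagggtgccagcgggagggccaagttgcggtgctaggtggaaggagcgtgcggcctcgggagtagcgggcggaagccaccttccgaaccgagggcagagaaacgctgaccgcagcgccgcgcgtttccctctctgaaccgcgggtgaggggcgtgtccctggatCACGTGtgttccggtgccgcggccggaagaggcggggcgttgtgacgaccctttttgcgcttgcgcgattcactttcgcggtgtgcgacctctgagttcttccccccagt
Pes1 promoter (chr11:3963725-3964024, + strand): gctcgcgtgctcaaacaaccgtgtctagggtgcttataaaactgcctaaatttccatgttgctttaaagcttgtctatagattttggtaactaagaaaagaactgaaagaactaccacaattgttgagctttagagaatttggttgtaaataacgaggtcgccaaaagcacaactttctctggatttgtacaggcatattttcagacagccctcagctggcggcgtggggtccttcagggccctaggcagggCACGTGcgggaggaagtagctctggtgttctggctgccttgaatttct
Nop14 promoter (chr5:34660099-34660398, - strand): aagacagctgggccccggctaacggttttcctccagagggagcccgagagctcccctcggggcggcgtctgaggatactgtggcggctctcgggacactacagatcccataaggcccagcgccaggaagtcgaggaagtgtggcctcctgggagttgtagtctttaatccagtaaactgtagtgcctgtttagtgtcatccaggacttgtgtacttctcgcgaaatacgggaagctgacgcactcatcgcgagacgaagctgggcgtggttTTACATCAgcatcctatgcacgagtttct

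CACGTG was found in 5 of these 7 promoters, starting at base 38 after the start of the gene in *Utp20*, 41 in *Mybbp1a*, 18 in *Wdr43*, 3 in *Pes1* and at 60 bases before it in *Nop2*. Both strands were searched, and CACGTG reads the same on both. The table held promoters for 33 of the 40 members, and those for *Bop1*, *Gnl2*, *Rrp12*, *Npm1*, *Rrs1*, *Fbl* and *Myc* were not used here. Among the 26 matched members that were not called, 2 held the E-box, *Tsr1* and *Utp4*. The share was 21.2% over the matched members, 17.2% over 134 matched genes of 7 further lists (other ribosome biogenesis genes, with the *Myc* network among them), 11.5% over 10485 tested genes and 8.09% over all 27025 genes of the table. Of the 8 matched genes called in those lists, 1 held it, *Imp4*. TGATGNAA was found in 1 of the 33 matched members, at base 22 after the start of *Nop14* (TTACATCA on the strand of the gene), which is 3.03% of them, against 1.49% of the 134 genes of the further lists, 2.67% of the tested genes and 4.51% of all promoters. The 2 motifs did not overlap in any promoter printed. A match says only that these letters are present, and binding was not measured.

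*Utp20* encodes a very large scaffold protein of the small subunit processome and showed the largest fold change among the members with all 9 libraries. Without wildtype replicate 5 the estimate for *Myc*, which was not called, was larger (log2 fold change 1.35). Its level was 121, 120, 145 and 140 CPM in the 4 null libraries and 77.4, 61.0, 75.5, 72.8 and 61.6 CPM in the 5 wildtype libraries. Every null library lay far above the wildtype range, and the null libraries differed little from each other. This gave a log2 fold change of 0.92 ± 0.12 (SE), or 1.89-fold (adjusted p 0.000554 in edgeR's quasi-likelihood test), and it was 0.88 without wildtype replicate 5. *Utp20* passed in all 18 alternative analyses, with log2 fold changes between 0.87 and 1.04 and adjusted p-values between 4.15e-09 and 0.00386.

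*Nop14*, which encodes a processome protein that binds the methyltransferase *Emg1*, lay at 82.2, 83.8, 106 and 133 CPM in the null and at 68.0, 56.3, 76.1, 69.2 and 49.4 CPM in the wildtype libraries. The groups did not overlap, but the highest wildtype library came close to the lowest null library, and null replicates 3 and 4 were the highest. Its log2 fold change was 0.66 ± 0.17 (SE, adjusted p 0.0344 in edgeR's quasi-likelihood test). The call was lost when null replicate 3, null replicate 4 or wildtype replicate 1, 2 or 4 was left out (adjusted p between 0.064 and 0.1), and it held without wildtype replicate 5 (log2 fold change 0.59, adjusted p 0.0356).

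*Wdr43*, the mouse counterpart of yeast Utp5, belongs to the complex that links the processome to transcription of the precursor. Its level was 125.5, 130.2, 151.4 and 163.6 CPM in the null libraries and 102, 96.3, 105, 102 and 73.5 CPM in the wildtype libraries. Wildtype replicates 1 to 4 lay close together and wildtype replicate 5 lay below them, and all 5 were below the null libraries. Between the genotypes, the log2 fold change was 0.58 ± 0.13 (SE, adjusted p 0.0195 in edgeR's quasi-likelihood test), and 0.50 (adjusted p 0.0166) without wildtype replicate 5. Leaving out null replicate 3 or wildtype replicate 2 raised the adjusted p to 0.0661 or 0.0505.

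The other 10 small subunit genes did not pass the test, although all 13 genes of the role had log2 fold changes above 0, with a median of 0.37. That sign turned for *Tsr1* when null replicate 4 was left out. The log2 fold changes of the 10 lay between 0.13 for *Tsr1*, a late factor of the 40S particle, and 0.50 for *Wdr75*, a partner of *Wdr43* in the same complex, and the smallest adjusted p was 0.152 for *Heatr1*, the counterpart of yeast Utp10. *Heatr1* was at 67.7, 53.9, 67.4 and 68.1 CPM in the null libraries and at 56.2, 47.8, 43.2, 43.3 and 56.8 CPM in the wildtype libraries, so only null replicate 2 lay within the wildtype range. The remaining genes were *Utp4* and *Utp15* of the same complex, the U3 snoRNP protein *Rrp9*, the GTPase *Bms1*, the export factor *Rrp12*, the endonuclease *Nob1* and the RNA acetyltransferase *Nat10*, with log2 fold changes from 0.15 for *Nat10* to 0.40 for *Utp4*.

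**Figure D2:**
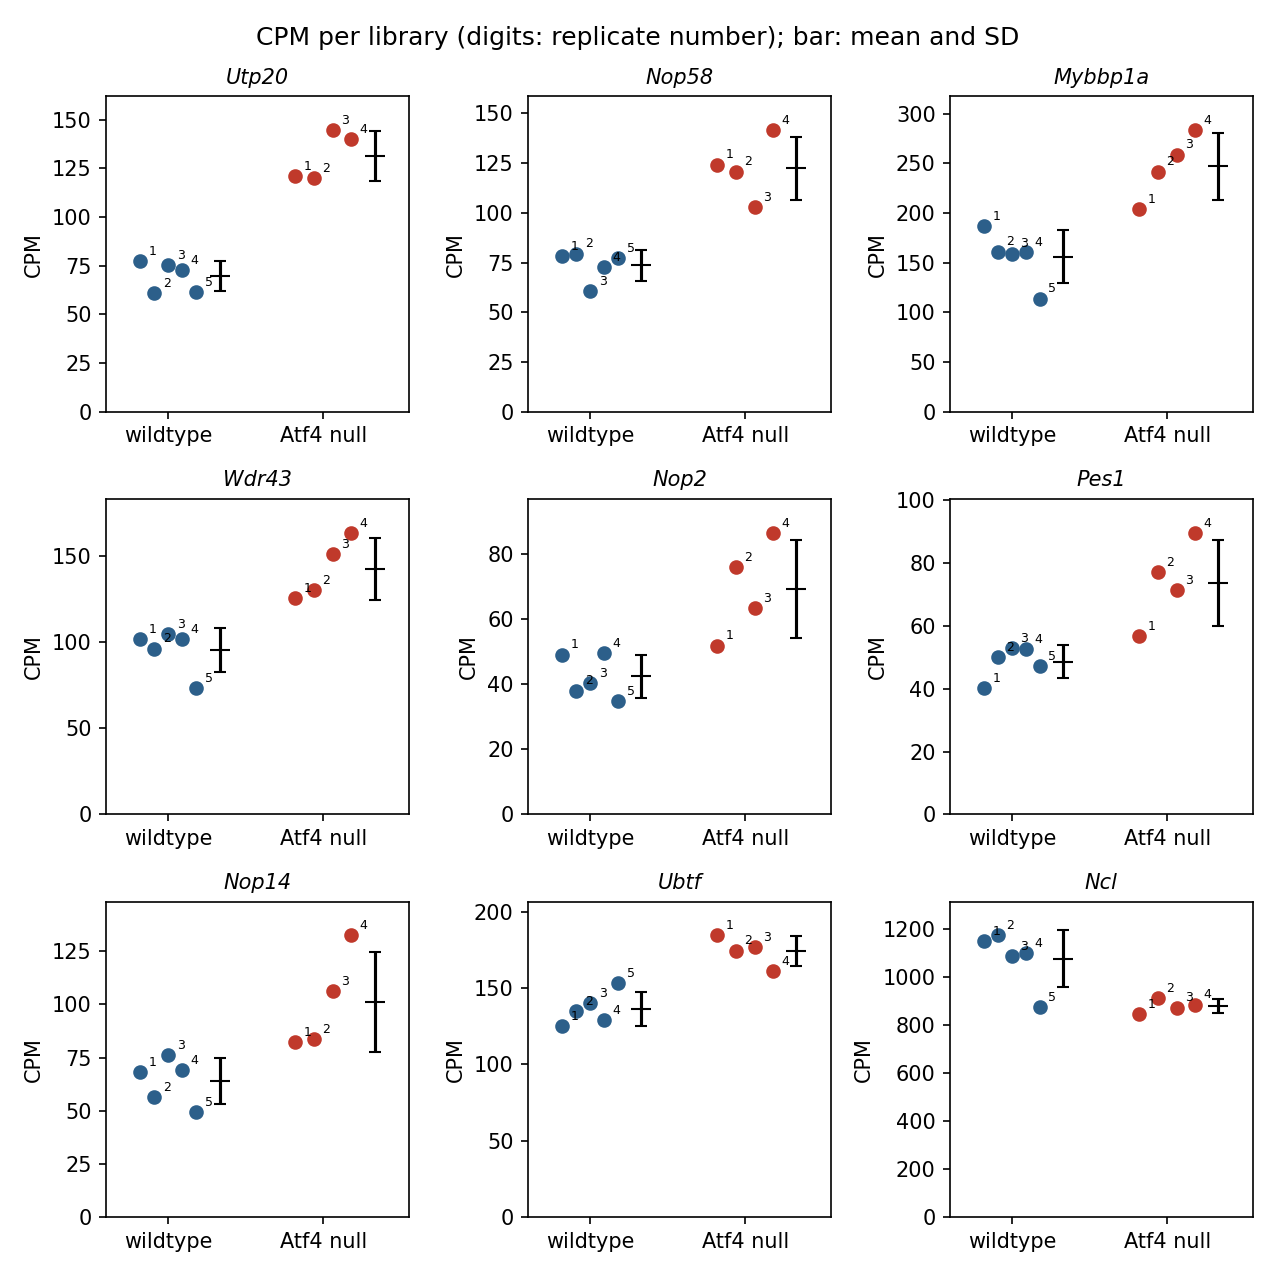
Level in CPM (y axis, from 0) of the 7 genes that rose and of *Ubtf* and *Ncl* in each of the 5 wildtype (blue) and 4 *Atf4* null (red) libraries, with the mean and SD beside each group and the replicate number beside each point. In *Utp20* the null libraries lie at 120 CPM or above and the wildtype libraries at 77.4 CPM or below, while in *Ncl* wildtype replicate 5 lies within the null range.

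Among the large subunit genes, *Nop2* and *Pes1* rose. *Nop2*, a methyltransferase that modifies 28S ribosomal RNA, lay at 51.8, 75.8, 63.3 and 86.5 CPM in the null libraries and at 49.0, 38.0, 40.4, 49.6 and 34.7 CPM in the wildtype libraries. Null replicate 1 was barely above the highest wildtype library, and the other 3 null libraries stood well clear of it. In log2 terms, the fold change was 0.71 ± 0.17 (SE, adjusted p 0.0277 in edgeR's quasi-likelihood test), and 0.65 (adjusted p 0.0281) without wildtype replicate 5. The call was lost without null replicate 2, 3 or 4 or wildtype replicate 2 or 3 (adjusted p between 0.0561 and 0.0941). It was also lost with the replicate number as a block (edgeR's adjusted p 0.0594).

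*Pes1* encodes pescadillo, which forms the PeBoW complex with *Bop1* and *Wdr12* and is needed to mature the 60S subunit. It lay at 56.7, 77.2, 71.4 and 89.7 CPM in the null libraries and at 40.3, 50.1, 53.0, 52.7 and 47.1 CPM in the wildtype libraries. The groups did not overlap, with null replicate 1 again nearest to the wildtype range. Its log2 fold change was 0.60 ± 0.15 (SE, adjusted p 0.0331 in edgeR's quasi-likelihood test), and 0.59 (adjusted p 0.033) without wildtype replicate 5. *Pes1* passed in 11 of the 18 alternatives, the fewest of the 7, and the call was lost without null replicate 2, 3 or 4 or wildtype replicate 1, 2, 3 or 4 (adjusted p between 0.0576 and 0.108). The partners in the complex were not called, with log2 fold changes of 0.22 for *Bop1* and 0.25 for *Wdr12* and 95% intervals from -0.25 to 0.68 and from -0.12 to 0.61.

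The other 9 large subunit genes, *Bop1* and *Wdr12* among them, did not pass, with log2 fold changes from -0.13 for the helicase *Ddx18* to 0.67 for *Rrs1*, which helps to incorporate the 5S particle. *Rrs1* varied widely between the null libraries, at 27.5, 35.9, 58.0 and 35.5 CPM, against 31.8, 28.5, 15.8, 25.6 and 21.4 CPM in the wildtype libraries. The groups overlapped through null replicate 1, and the adjusted p was 0.14 in edgeR's quasi-likelihood test. *Ddx21*, a helicase that acts in both polymerase I transcription and processing, had a log2 fold change of 0.31 and an adjusted p of 0.219. For the GTPases *Gnl3* (nucleostemin) and *Gnl2* and for *Rrp1b* the log2 fold changes were 0.25, 0.18 and 0.12, and for *Nop16* it was -0.060.

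Of the box C/D snoRNP proteins, *Nop58* rose and its partners did not pass the test. *Nop58* lay at 124, 121, 103 and 142 CPM in the null libraries and at 78.4, 79.5, 60.5, 72.9 and 77.2 CPM in the wildtype libraries. All null libraries were above all wildtype libraries, by a margin wider than the wildtype range. The difference was a log2 fold change of 0.73 ± 0.12 (SE), or 1.66-fold (adjusted p 0.00374 in edgeR's quasi-likelihood test), and 0.75 without wildtype replicate 5. Like *Utp20*, *Nop58* passed in all 18 alternatives, with adjusted p-values between 3.22e-05 and 0.0168. *Nop56*, its paralog in the same particle, had a log2 fold change of 0.34 (adjusted p 0.184), and that of the methyltransferase *Fbl* (fibrillarin) was 0.0024 with a 95% interval from -0.30 to 0.30. The differences between the 3 proteins of the particle were not tested.

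No box H/ACA snoRNP protein passed the test. *Dkc1* (dyskerin), the pseudouridine synthase, had the smallest p of the 4 and lay at 57.3, 51.4, 37.3 and 44.0 CPM in the null and at 55.6, 39.4, 34.1, 43.2 and 36.7 CPM in the wildtype libraries. The groups overlapped over most of their range, with a log2 fold change of 0.19 ± 0.18 (SE) and an adjusted p of 0.652 in edgeR's quasi-likelihood test. For *Nhp2*, *Gar1* and *Nop10* the log2 fold changes were 0.23, 0.19 and -0.40. *Gar1* and *Nop10* were thinly covered, with 28 to 85 and 15 to 133 counts per library, and the 95% interval of *Nop10* ran from -1.53 to 0.74, so its direction was not determined. *Nop10* ranged from 1.61 to 16.4 CPM among the wildtype libraries, and leaving out wildtype replicate 3 turned its sign.

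For RNA polymerase I transcription, 0 of 3 members passed the test. The nearest was *Ubtf*, which encodes the factor that opens ribosomal DNA for the polymerase, at 185, 175, 177 and 161 CPM in the null libraries and 125, 135, 140, 129 and 153 CPM in the wildtype libraries. All null libraries were above all wildtype libraries (exact two-sided permutation test, p = 0.0159), with null replicate 4 and wildtype replicate 5 nearest to each other. The log2 fold change of 0.35 ± 0.10 (SE) had an adjusted p of 0.0629 in edgeR's quasi-likelihood test, and DESeq2 gave 0.0288. Without wildtype replicate 5 the log2 fold change was 0.40 and edgeR's adjusted p was 0.0277. *Ubtf* passed in 3 of the 18 alternatives, and edgeR's adjusted p reached 0.162 without a filter on low counts. For *Polr1a*, the largest subunit of the enzyme, the log2 fold change was 0.42 (adjusted p 0.129), and for *Polr1b*, the second largest, it was -0.046 and turned positive with library size alone.

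*Myc* had the second highest point estimate of the 40 genes with all 9 libraries. Its level was 5.88, 14.3, 17.4 and 8.30 CPM in the null libraries and 2.95, 6.54, 6.55, 1.90 and 13.5 CPM in the wildtype libraries, from 15 to 159 counts per library. Wildtype replicate 5, the library with muscle and mesenchyme transcripts, held the highest wildtype value, inside the null range. This gave a log2 fold change of 0.86 ± 0.51 (SE, adjusted p 0.392 in edgeR's quasi-likelihood test), and 1.35 (adjusted p 0.088) without wildtype replicate 5. A change in *Myc* was thus not detectable among these libraries, and the 95% interval ran from -0.23 to 1.96.

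The most abundant members were not among the genes that rose. *Ncl* (nucleolin), an RNA-binding protein of the nucleolus, was the highest of the members per length at 105 FPKM in wildtype, followed by *Npm1* (nucleophosmin) at 57.1 FPKM, and the other 38 lay between 2.30 FPKM for *Myc* and 26.4 FPKM for *Mybbp1a*. *Ncl* was at 846, 912, 873 and 885 CPM in the null libraries and at 1149, 1174, 1087, 1101 and 875 CPM in the wildtype libraries. Wildtype replicates 1 to 4 lay above all null libraries, and wildtype replicate 5 lay among the null ones. Between the genotypes, the log2 fold change was -0.29 ± 0.11 (SE, adjusted p 0.162 in edgeR's quasi-likelihood test), and without wildtype replicate 5 it was -0.36 (adjusted p 0.035), the only lower call for a member in any analysis run. *Npm1* lay between 318 and 385 CPM in all 9 libraries, with a log2 fold change of 0.08 (95% interval -0.13 to 0.30). *Nolc1* (Nopp140), the chaperone of snoRNPs, had a log2 fold change of 0.12.

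*Mybbp1a*, which binds Myb and other transcription factors and also acts in ribosomal RNA synthesis, rose from 26.4 to 41.6 FPKM. It lay at 204, 242, 259 and 283 CPM in the null libraries and at 187, 161, 159, 160 and 114 CPM in the wildtype libraries. The highest wildtype and the lowest null library came within reach of each other without overlap. In log2 terms, the fold change was 0.66 ± 0.14 (SE, adjusted p 0.0161 in edgeR's quasi-likelihood test), and 0.57 (adjusted p 0.00826) without wildtype replicate 5. Leaving out null replicate 3 raised the adjusted p to 0.0518. *Mybbp1a* shares exon sequence with *Spns2* on the opposite strand, which was at 12 CPM in null and 22.2 CPM in wildtype, and the strand setting of the counting was not given in the sources used here. *Noc2l*, an inhibitor of histone acetylation, had a log2 fold change of 0.13. For each of the 7 genes that rose, the exact two-sided permutation test gave p = 0.00794, the smallest that splits of 9 libraries into 4 and 5 can give.

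**Figure D3:**
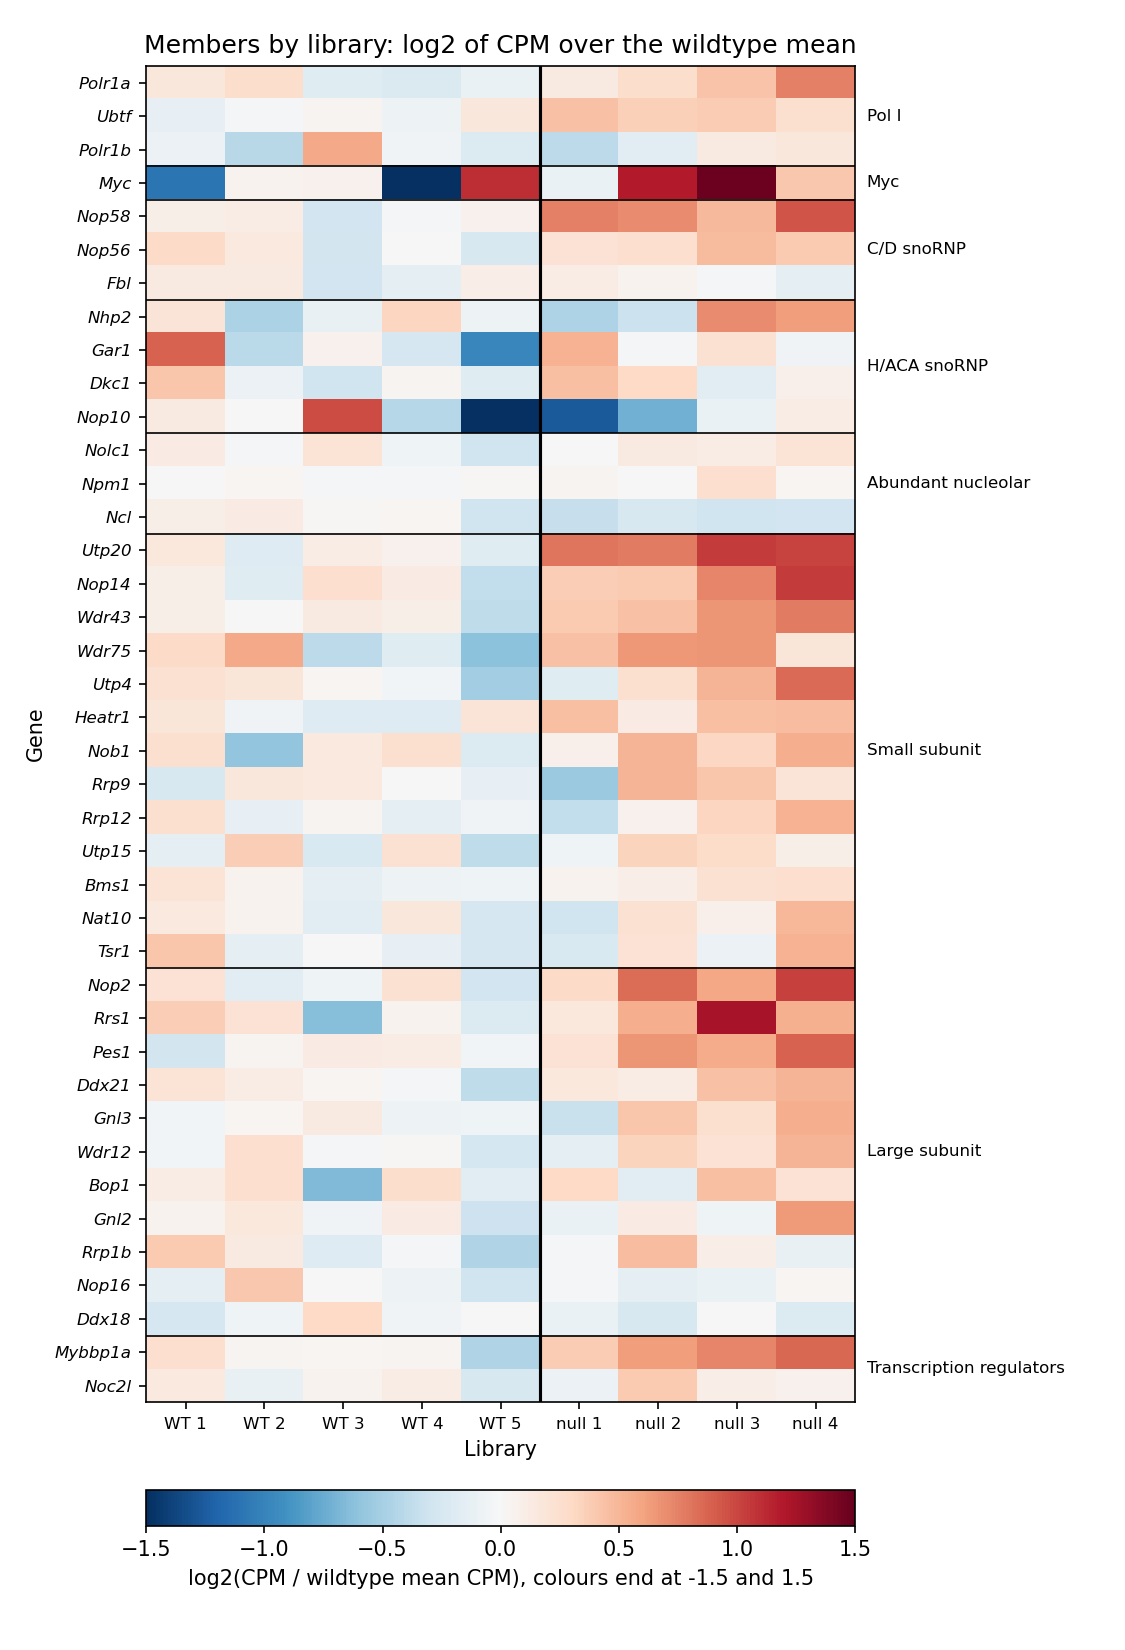
Log2 of the TMM-scaled CPM of each member over its wildtype mean (colour, red above and blue below), for 5 wildtype (WT) and 4 *Atf4* null libraries (columns), grouped by role. Null replicate 4 was the highest of the 9 libraries for 18 genes, and wildtype replicate 5 the lowest for 17.

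The libraries of a genotype differed among themselves. The median over the 40 genes of log2 TMM-scaled CPM over the wildtype mean was 0.044, 0.26, 0.32 and 0.43 in the 4 null libraries and 0.14, 0.044, 0.011, -0.014 and -0.22 in the wildtype libraries. Null replicate 1 thus lay within the wildtype range, while null replicates 2, 3 and 4 lay above it. Null replicate 1 was the lowest of the null libraries for 26 genes. Summed over the 40 genes, the level was 3613 to 4317 CPM in the null and 3095 to 3847 CPM in the wildtype libraries, ranges that overlapped. Without *Ncl* and *Npm1*, a choice made after the values were seen, it was 2434 to 3103 CPM in the null and 1893 to 2375 CPM in the wildtype libraries, without overlap. As a share of all gene counts, with no TMM factors, the 40 genes took 0.399 to 0.434% in the null and 0.325 to 0.356% in the wildtype libraries, also without overlap.

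Markers of other cells and states also differed between these libraries. The summed level of 10 retina markers was 691, 413, 476 and 243 CPM in the null and 143 to 218 CPM in the wildtype libraries, with 10 of 10 log2 fold changes above 0, 4 called higher and no marker at 0. Null replicate 4 had the lowest retina sum of the null libraries and null replicate 1 the highest. With TMM factors the median of the 40 genes was highest in null replicate 4 and lowest in null replicate 1, but their summed share of all gene counts was lowest in null replicate 4 (0.399% against 0.417%, 0.418% and 0.434%), so the order of the null libraries depended on the scaling. For 15 proliferation markers the sums were 1890, 1238, 1323 and 640 CPM in the null and 1140 to 1310 CPM in the wildtype libraries, with 0 of 15 called, and null replicate 4 had the lowest sum. The 12 lens fiber markers summed to 46930, 72800, 70130 and 112200 CPM in the null libraries and to 60820 CPM in wildtype replicate 5, against 104800 or more in the other wildtype libraries. Of the 11 fiber markers tested 4 were called lower, and of the 10 lens epithelium markers 7 were, with sums of 2740 to 3830 CPM in null against 4220 to 5770 CPM in wildtype. Summed levels of 7 blood, 7 vascular endothelium and 8 macrophage markers were 181 to 254, 158 to 357 and 88.7 to 110 CPM in the null and 230 to 738, 298 to 558 and 78.5 to 103 CPM in the wildtype libraries, with 1 blood marker called lower and no other call. The share of reads that fell on no gene was 24.4, 18.5, 19.5 and 15.8% in the null libraries and 20.4 to 26.1% in the wildtype libraries. The part of any of these marker lists, muscle and mesenchyme included, or of these reads in the differences of the members was not tested.

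**Figure D4:**
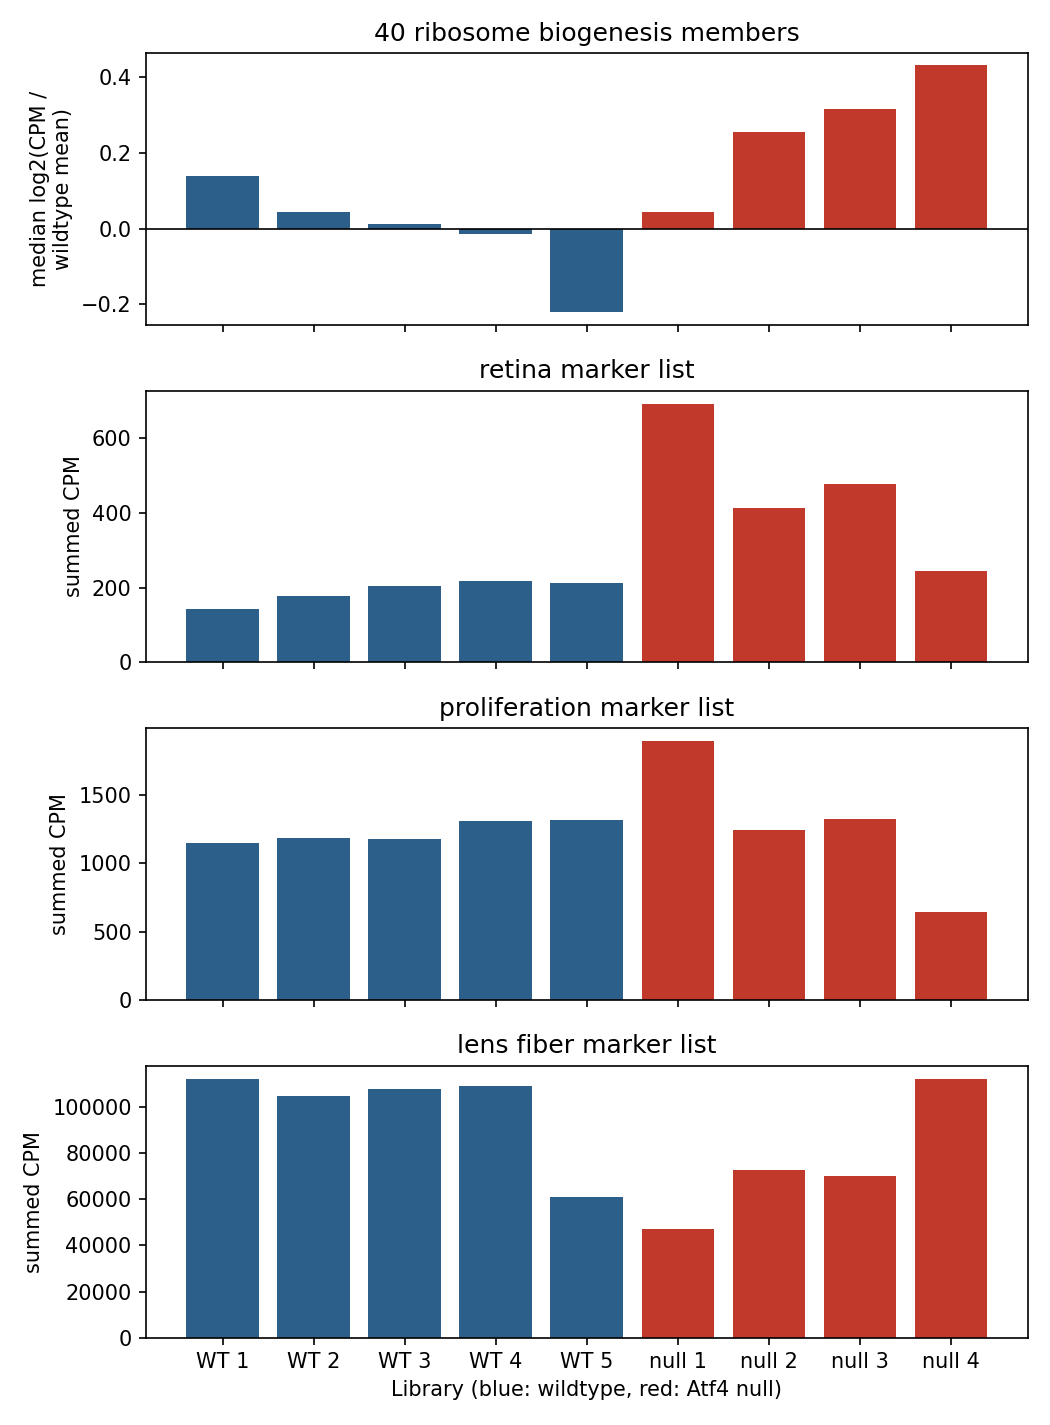
Per library (x axis; blue wildtype, red *Atf4* null), the median over the 40 genes of log2 CPM over the wildtype mean, and the summed CPM of the retina, proliferation and lens fiber marker lists. Among the null libraries, replicate 4 has the highest median at 0.43 (with TMM factors) and the lowest retina and proliferation sums, at 243 and 640 CPM, and the highest fiber sum.

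Further genes were taken from 7 lists that do not include the 40 members, 6 of ribosome biogenesis and snoRNA host genes and 1 of the *Myc* network of transcription factors. Of 163 genes listed 160 were tested, and 9 rose and 1 fell, against 2.23% called higher and 3.67% called lower over all genes tested. Log2 fold changes were above 0 for 125 of the 160, and the median was 0.23, close to the 0.22 of the members. Between 3 genes (without null replicate 2) and 29 genes (with library size alone) were called among the alternatives, and 12 without wildtype replicate 5. Over all genes tested, the calls in these settings were 527 of 15475, 1229 of 14903 and 1207 of 14493.

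The large subunit list held the most calls, 5 of 51, all higher. *Mak16*, a factor of early 60S particles, was at 62.5, 74.3, 79.8 and 64.8 CPM in the null libraries and 37.4, 42.2, 36.3, 40.3 and 34.3 CPM in the wildtype libraries, without overlap, for a log2 fold change of 0.89 ± 0.13 (SE) and an adjusted p of 0.00168 in edgeR's quasi-likelihood test. *Ddx27*, a helicase that works with the PeBoW complex of *Pes1*, had a mean of 139 ± 17.8 CPM in null and 76.4 ± 11.9 CPM in wildtype (SD, n = 4 and 5) and a log2 fold change of 0.87 (adjusted p 0.002 in edgeR's quasi-likelihood test). For *Nop53*, which brings the exosome to the particle, the log2 fold change was 0.69 and edgeR's adjusted p 0.005. *Mak16*, *Ddx27* and *Nop53* passed in all 18 alternatives. The other calls, *Nifk* (0.79, adjusted p 0.0245) and *Rsl1d1* (0.60, adjusted p 0.0223), passed in 12 and 11 of the 18 alternatives, and both calls were lost without null replicate 2, 3 or 4 or wildtype replicate 1 or 4 (adjusted p up to 0.0657 and 0.0857).

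Of 49 other small subunit genes, 2 rose. *Imp4*, a protein of the U3 snoRNP, had 32.4 ± 2.85 CPM in null and 20.4 ± 1.94 CPM in wildtype (SD, n = 4 and 5), a log2 fold change of 0.67 and an adjusted p of 0.0297 in edgeR's quasi-likelihood test. *Noc4l*, a partner of *Nop14*, had 19.9 ± 3.57 CPM in null and 10.2 ± 3.37 CPM in wildtype (SD, n = 4 and 5), and the groups overlapped in spite of a log2 fold change of 0.97 (edgeR's adjusted p 0.0486). *Imp4* passed in 10 and *Noc4l* in 9 of the 18 alternatives, and their adjusted p-values reached 0.105 and 0.141. Both calls were lost without null replicate 2, 3 or 4 or wildtype replicate 3 or 4, that of *Imp4* also without wildtype replicate 2, and that of *Noc4l* also without wildtype replicate 1 or 5.

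Other lists held few calls or none. None of 13 polymerase I subunits and initiation factors passed, and the smallest p was that of *Taf1d*, a subunit of the selectivity factor SL1, which had a log2 fold change of -0.33 (edgeR's adjusted p 0.124). Among 9 snoRNP assembly factors none passed, and the ATPase *Ruvbl1* came nearest with a log2 fold change of -0.42 (edgeR's adjusted p 0.0677). *Ruvbl1* was called lower without wildtype replicate 5 (-0.47, edgeR's adjusted p 0.0281), by DESeq2 (adjusted p 0.0391) and with at least 10 counts in every library (edgeR's adjusted p 0.049). For 13 tested genes of the nuclear exosome, which trims ribosomal RNA precursors, the nearest was *Exosc9* with 0.48 (edgeR's adjusted p 0.0965), which passed with library size alone (adjusted p 0.0314).

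In the *Myc* network list, 1 of 11 genes was called. *Mxd1*, a partner of *Max* that is known to oppose *Myc*, fell from 119 ± 23.4 CPM in wildtype to 59.0 ± 20.9 CPM in null (SD, n = 5 and 4), a log2 fold change of -1.01 (adjusted p 0.0147) in edgeR's quasi-likelihood test. The groups overlapped, because null replicate 4 (89.2 CPM) lay above wildtype replicate 5 (78.3 CPM), and the call was lost without null replicate 2 or 3 (highest adjusted p 0.0615). *Mycn*, a paralog of *Myc* with far more CPM than *Myc* in these libraries, had a log2 fold change of 0.42 (adjusted p 0.184), and for *Max* it was 0.24 with 0.511. Not called either, but without overlap between the groups, were *Mxi1* (-0.54, adjusted p 0.0517) and *Mga* (0.28, adjusted p 0.131) in the same test.

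Of 14 tested noncoding genes that host snoRNAs, 2 rose. *Snhg1* was at 21.0, 35.3, 26.4 and 39.3 CPM in the null libraries and 9.24, 14.8, 13.7, 18.7 and 11.4 CPM in the wildtype libraries, with a log2 fold change of 1.17 ± 0.25 (SE) and an adjusted p of 0.0145 in edgeR's quasi-likelihood test. Its groups did not overlap, and leaving out null replicate 2 raised the adjusted p to 0.0573. *Snhg12* had a log2 fold change of 1.2 (edgeR's adjusted p 0.0432), with overlapping groups, and the call was lost without null replicate 2, 3 or 4 or wildtype replicate 1, 2 or 3 (adjusted p up to 0.127). Of the snoRNA genes themselves 11 had enough counts to be tested, and edgeR called 0, with 0 at an unadjusted p below 0.05. Members of the set also carry such genes within their bounds: 6 of the 40 hold 11 snoRNA genes, among them *Nop58* with *Snord11* and *Snord70* and *Wdr43* with *Snord53* and *Snord92*.

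**Figure D5:**
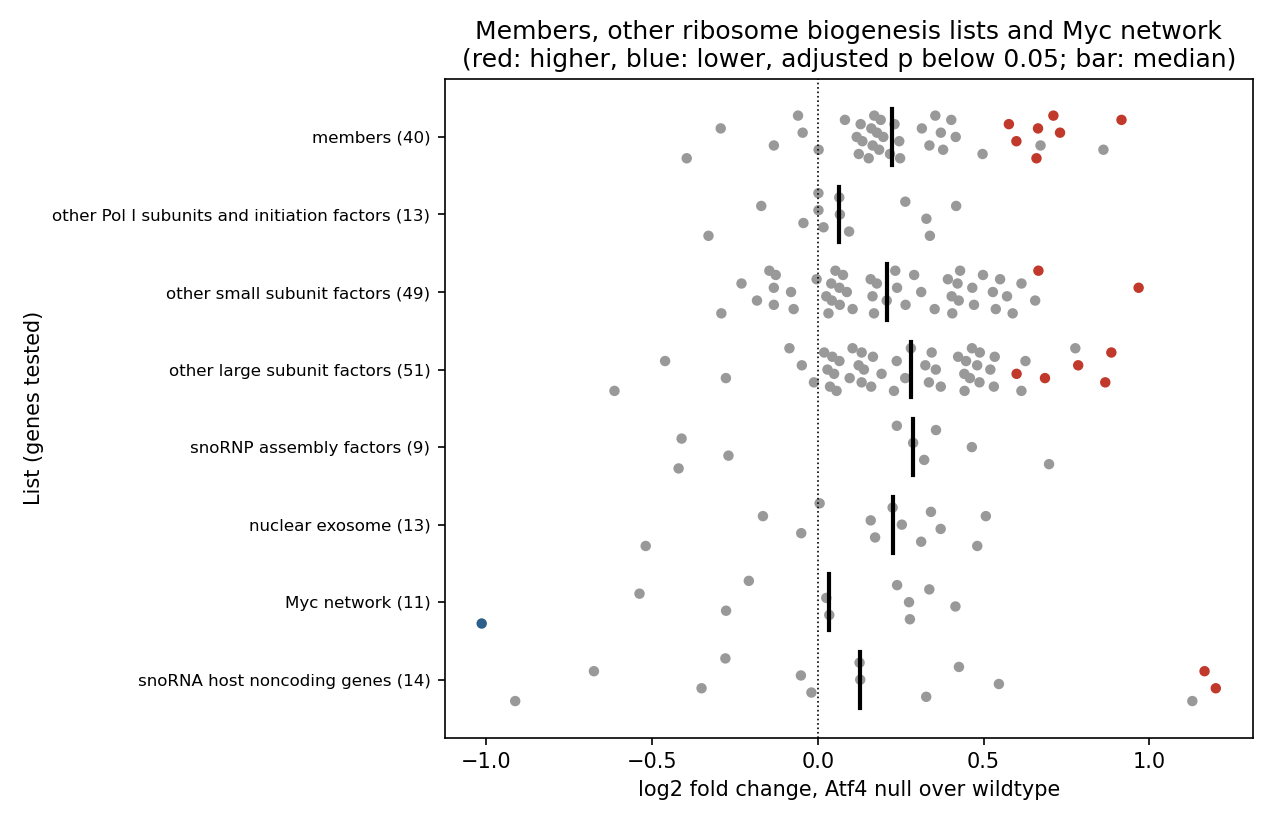
Log2 fold change (x axis, *Atf4* null over wildtype) of each tested gene of the members and of the 7 other lists (y axis, with the number of genes tested), with the median of each list as a black bar. Red points (7 members, 9 other genes) were called higher and the 1 blue point, *Mxd1*, lower, and the medians of the members and of all 160 other genes were 0.22 and 0.23.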

How the data were processed

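Counts per gene of 9 E16.5 lens libraries were the values the authors deposited, whole numbers without normalization. Per the submitters' processing notes and the study's methods, reads were trimmed with Trim Galore, those on ribosomal RNA were removed, the rest were aligned to GRCm39 with HISAT2 and counted with HTSeq. The 5 summary entries of each file (44.6 to 47.7% of reads) were left out. Symbols and exon lengths came from GENCODE vM39 (54749 of 55416 genes, all but 0.033% of counts). Among 36 pairs of libraries, chi-square per degree of freedom was at least 7.93, so none was a repeat. Replicate numbers follow the sample titles, which for wildtype name other libraries than the files, so wildtype numbers are uncertain and genotypes are not.

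edgeR 4.0.16 in R 4.3.3 kept genes by filterByExpr, scaled by TMM factors and tested genotype by the quasi-likelihood test, with Benjamini-Hochberg adjustment over 14903 genes and a threshold of 0.05. The procedure was tested on simulated counts. Permutation tests used mean log2 of CPM plus 2 (scipy 1.17.1), two-sided. Alternatives were exactTest, DESeq2 1.42.0, a robust fit, other scalings (RLE, library size, TMM without 16 crystallin genes), other filters on low counts, a replicate block and leaving out each library; those for the 7 further lists were added after the data had been seen. The members and lists were chosen with earlier results of these data known. Values in every library are given for members that were called or did not overlap, or else for the member of a role with the smallest p. They are also given for a few further genes (*Heatr1*, *Rrs1*, *Mak16*, *Snhg1*) chosen after their values were seen. Of each other list, called genes are named, or the one with the smallest p. *Mycn*, *Max*, *Mxi1* and *Mga* were added after their values were seen. Tests of gene sets were not made.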

Additional observations from a re-analysis of the deposited data

Results flagged for a closer look

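In 80 groups of 4 or 5 libraries (40 genes in each genotype), 2 had a library set apart from the rest by Dixon's test at the 95% level, where chance gives about 1 in 20. *Heatr1* was at 53.9 CPM in *Atf4* null replicate 2, below the other null libraries by 0.951 of the whole range of the group. *Wdr43* was at 73.5 CPM in wildtype replicate 5, below the other wildtype libraries by 0.725 of the range, and that library also held the muscle and mesenchyme transcripts. With wildtype replicate 5 left out, *Wdr43* had a log2 fold change of 0.50 and an adjusted p of 0.0166 in edgeR's quasi-likelihood test.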

How the results depend on the processing

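Over 18 alternatives and 40 genes, 677 of 720 values kept their direction and their side of the threshold, 21 lost the call, 7 gained it and 15 changed sign. Each change of sign was in a gene that was not called. *Fbl* went to -0.0048 with at least 10 counts in every library and to -0.0021 without a filter, and *Polr1b* and *Nop16* to 0.070 and 0.068 with library size alone. With 1 library left out, the log2 fold change ran from -0.061 to 0.043 for *Fbl*, from -0.13 to 0.14 for *Polr1b*, from -0.12 to 0.061 for *Nop16*, from -0.66 to 0.0069 for *Nop10*, from -0.012 to 0.24 for *Rrp1b*, from -0.024 to 0.26 for *Tsr1* and from -0.015 to 0.27 for *Gnl2*. With library size alone, 11 members were called, against 1229 of all 14903 genes tested, and 13 did not overlap, with the median of all genes moved to 0.12. The share of all genes without overlap was not taken for the alternatives. Leaving out 1 library gave 2 members called (without null replicate 3) to 9 (without wildtype replicate 5), 4 without null replicate 4 and 3 without wildtype replicate 2, while 8 to 14 members did not overlap (14 without null replicate 1) and the median log2 fold change of the members was between 0.19 and 0.34. Calls over all genes then ran from 527 of 15475 (without null replicate 2) to 1207 of 14493 (without wildtype replicate 5). Over the 7 further lists, 10 genes were called, 19 by DESeq2, 16 with at least 10 counts in every library, 29 with library size alone, and 3 to 15 with 1 library left out (3, 4 and 5 without null replicates 2, 3 and 4, and 6 without wildtype replicate 3 or 4). Calls over all genes moved too, from 880 of 14903 to 1397 of 14903 by DESeq2 and 909 of 11690 with at least 10 counts in every library. The cause of these shifts was not tested.

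The replicate numbers did not pair the libraries: same-numbered libraries correlated between -0.174 and 0.017, and 0 of 4 null libraries correlated best with its own number. With the number as a replicate block on 4 libraries of each genotype, 6 members were called, *Nop2* not among them (log2 fold change 0.64, adjusted p 0.0594), 9 did not overlap, the median was 0.17, and 8 genes of the further lists were called. Over all genes, 873 of 14493 were called with this block. Counts were lowest for *Myc*, *Nop10* and *Gar1*, with as few as 15, 15 and 28 in a library, and *Myc* and *Nop10* also varied widely between wildtype libraries.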
